A study of Mus musculus with 4 samples.

Results

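Collagen genes were taken as all autosomal protein-coding genes of the GENCODE annotation of mm10 whose symbol has the form Col, number, a, number, which gave 42 of 20807 autosomal coding genes. The data were H3K4me3 HiChIP libraries from MLg cells (ATCC CCL-206), a mouse lung fibroblast line, with 1 library for each of 4 conditions. HiChIP ligates DNA ends that lie close together in the nucleus and then enriches the ligated pieces with an antibody. Here the antibody was against trimethylated lysine 4 of histone H3, so pairs gather where the mark lies and show what touches it. A single pair does not show which of its ends, or whether either, carries the mark. According to the protocol, all cells were transfected with a 60 nM antagomiR, an oligonucleotide that blocks a microRNA, and were harvested 24 h later. The Control and TGFB1 libraries name no antagomiR in their labels, where Control is called WT, and the protocol gives a negative control oligonucleotide for cells without the specific one. TGFB1 cells received 5 ng/ml human recombinant TGFB1 for the last 4 h. The miR-9-LOF library (loss of function) came from cells with the antagomiR against miR-9-5p alone, and the TGFB1+miR-9-LOF library from cells with that antagomiR and TGFB1. Sets of 4 values are given in the library order Control, then TGFB1, then TGFB1+miR-9-LOF, and last miR-9-LOF.

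Collagens are the main structural proteins of the extracellular matrix, each built from three-stranded helices of alpha chains. Fibrillar collagens (types I, II, III, V, XI, XXIV and XXVII) form the tension-bearing fibrils that accumulate in lung fibrosis, with types V and XI controlling fibril diameter. Type IV chains form the sheet-like network of basement membranes and are encoded by genes that lie head to head in pairs, type VI forms beaded filaments around cells, and the fibril-associated types sit on the surface of fibrils. H3K4me3 marks the starts of active genes and is strongest at CpG-rich promoters, and CpG-poor promoters often carry less of it even when active.

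The libraries held between 10864558 and 15568047 valid pairs, and between 4609087 and 6441344 autosomal pairs spanned 20 kb to 2 Mb. The enrichment of promoters over their surroundings differed between libraries, and this touches every comparison that follows. In the library order, 28.0%, 20.8%, 8.34% and 12.6% of coding promoters held at least 4 times the density of their flanks, so Control was the most enriched. Ratios between libraries were therefore centred on promoters of the same level. Of 12 fibroblast markers, 5 were marked over the pooled libraries (Twist1, Twist2, Vim, Prrx1 and Pdgfra), while none of 8 epithelial, 6 endothelial or 6 blood markers was. The fibroblast list ranged from 1.01-fold to 9.61-fold over the flanks, the epithelial list from 0.489 to 2.56, the endothelial list from 0.757 to 1.84 and the blood list from 0.319 to 1.49. The lists overlapped, since Foxj1, of ciliated epithelium, stood at 2.56-fold and the fibroblast genes Fn1 (1.78), Dcn (1.77), Postn (1.66), Lum (1.42) and Thy1 (1.01) stood below it.

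Which collagen promoters carry the mark was asked first. A promoter was called marked when pair ends within 2 kb of the transcription start site (TSS), averaged over the 4 libraries at equal totals, reached 4 times the density of the flanks 10 to 50 kb away. Of the 42 collagen promoters 5 were marked, beside 19.3% of all coding promoters. They were Col4a1 and Col4a2 (6.42-fold and 6.41-fold), which encode the 2 ubiquitous basement membrane chains, Col5a1 (6.20-fold) and Col5a2 (5.29-fold), which encode 2 chains of type V collagen, and Col11a1 (5.52-fold), for a type XI chain. Col5a3, for the other type V chain, was not marked, at 1.16-fold. Col4a1 and Col4a2 share a start, so these 2 genes have nearly the same window in this and later counts. The lowest marked member was Col5a2, and just outside the threshold lay Col8a1, for a short-chain collagen of vessel walls, at 3.996-fold, Col16a1 at 3.78-fold and Col1a1 at 3.40-fold. Col1a1 and Col1a2, the genes of type I collagen, differed from each other, with 3.40-fold and 1.97-fold over the flanks, and Col3a1 stood at 1.13-fold.

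The promoter sequences show how unlike these starts are. The stretches are the 250 bases before the RefSeq TSS (GRCm38.p6), read along the gene, with every CpG in capitals. Col5a1 is shown as the marked promoter with the highest level relative to the median promoter, Col3a1 as an unmarked fibrillar one, and Col7a1 because it changed between libraries as described further on. The stretches lie at chr2:27886175-27886424, chr1:45311288-45311537 and chr9:108953336-108953585, all on the plus strand.
Col5a1: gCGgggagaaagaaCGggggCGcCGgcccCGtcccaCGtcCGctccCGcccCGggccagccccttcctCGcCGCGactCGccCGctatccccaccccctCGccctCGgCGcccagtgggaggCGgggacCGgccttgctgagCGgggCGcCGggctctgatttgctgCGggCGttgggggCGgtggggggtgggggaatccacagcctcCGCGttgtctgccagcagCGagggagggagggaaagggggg
Col3a1: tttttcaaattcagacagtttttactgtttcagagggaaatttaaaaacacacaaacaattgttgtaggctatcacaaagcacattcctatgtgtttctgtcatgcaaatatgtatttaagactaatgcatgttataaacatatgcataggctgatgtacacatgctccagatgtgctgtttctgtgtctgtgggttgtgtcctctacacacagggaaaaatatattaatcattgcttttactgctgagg
Col7a1: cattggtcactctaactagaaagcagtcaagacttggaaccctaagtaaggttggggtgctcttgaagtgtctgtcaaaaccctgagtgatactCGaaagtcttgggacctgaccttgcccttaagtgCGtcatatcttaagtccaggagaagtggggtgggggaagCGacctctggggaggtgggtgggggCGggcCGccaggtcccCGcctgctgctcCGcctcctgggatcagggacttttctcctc
Col5a1 held 28 CpG in these bases, Col7a1 held 7 and Col3a1 held 0.

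Promoter composition was available for 32 of the 42 members, in the 300 bases from 250 before to 50 after the RefSeq TSS. The ratio of observed to expected CpG had a median of 0.456 over these members, against 0.652 over the 13965 coding promoters with a sequence. The 4 marked members with a sequence had a median of 0.813, close to the 0.842 of all 3070 marked coding promoters with one, and the 28 unmarked members had 0.425. Across the members the level and the CpG ratio had a Spearman's rho of 0.37, and across all coding promoters 0.58, as a description over genes that share libraries. Exceptions ran both ways. Col11a1 was marked with a ratio of 0.332, while Col13a1 (0.837) and Col8a2 (0.832), for a transmembrane and a short-chain collagen, had ratios near that of Col5a1 (0.809) and stood at 0.945-fold and 0.664-fold over their flanks. MboI, the enzyme that sets where pair ends can lie, cut 10 times within 2 kb of the Col5a1 TSS, 12 times at Col13a1, 12 times at Col8a2 and 6 times at Col3a1. Spearman's rho of level with the number of these sites was 0.18 over the 42 members and 0.26 over all coding promoters, and their part in these levels was not tested.

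**Figure D1:**
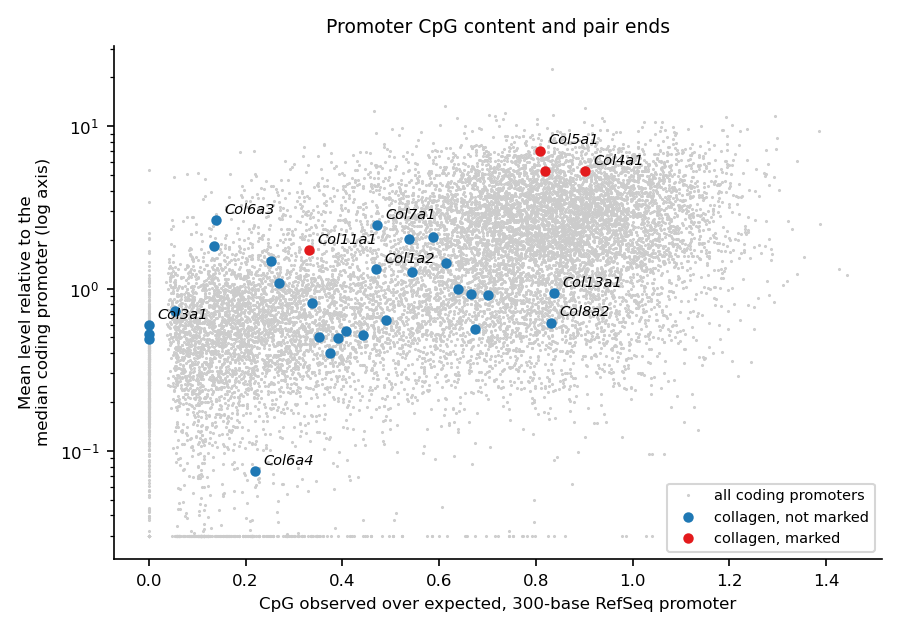
Ratio of observed to expected CpG in the 300-base promoter (x axis) against the mean promoter level over 4 libraries relative to the median coding promoter (y axis, log), for 13965 coding promoters (grey, with the lowest values drawn together on 1 bottom line) and 32 collagen promoters (red marked, blue not marked). Col5a1 and Col4a1 lie at high CpG and high level, Col11a1 is marked at a ratio of 0.332, and Col13a1 and Col8a2 lie below the median level despite ratios above 0.8.

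A motif of 4 runs of at least 3 G separated by 1 to 7 bases, on either strand, was found in 13 of the 32 collagen promoters, against 23.1% of all coding promoters with a sequence. Among the marked members it was present in Col5a1 and not matched in Col4a1, Col4a2 and Col11a1. The letters CCAAT, on either strand, were matched in 10 of the 32, against 38.4% of all, and these included Col4a1, Col4a2 and Col11a1. The letters TATAAA were matched in 5, against 11.6% of all, among them Col3a1, Col11a2 and Col13a1.

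The level of each promoter was expressed as pair ends within 2 kb of the TSS, divided by the number at the median coding promoter of the same library. Each value carries counting error only, and with 1 library for each condition no spread between replicates exists. Over the 42 members, 14 lay above the median promoter in all 4 libraries and 18 below it in all 4, beside 43.9% of all coding promoters in each case. The members' median was 0.87, 0.99, 0.97 and 0.92 in the library order.

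Col5a1 was the highest collagen promoter in every library. Its TSS is at position 27886425 of chromosome 2, and 1069, 529, 428 and 511 ends lay within 2 kb of it in the library order. These made 9.99, 7.45, 5.22 and 5.62 times the median promoter, with a 95% exact Poisson interval of 9.40 to 10.6 in Control and 5.14 to 6.12 in miR-9-LOF. It ranked above 98.6% of coding promoters. The order of the libraries was that of the marked promoters as a whole, whose median levels were 5.08, 3.94, 2.70 and 3.08.

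Col5a2, whose product pairs with that of Col5a1 in type V fibrils, had 306, 183, 132 and 201 ends, or 2.86, 2.58, 1.61 and 2.21 times the median. Col11a1 had 238, 139, 103 and 133 ends, or 2.22, 1.96, 1.26 and 1.46 times. Both were marked although their levels were moderate, with flanks at 0.704 and 0.504 of the median flank density. Col1a1, the highest unmarked member, had 605, 314, 253 and 347 ends, or 5.65, 4.42, 3.09 and 3.81 times the median. Its flanks stood at 2.01 times the median flank, and its ratio reached 4.62 in Control and stayed under 4 in the other 3 libraries.

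Col1a2, for the second chain of type I collagen, had 191, 107, 81 and 89 ends, or 1.79, 1.51, 0.99 and 0.98 times the median. Its annotated gene start lies 804 bases upstream of the RefSeq TSS, and the windows here follow the GENCODE start. Col3a1, whose type III chains accompany type I in compliant tissue, had 70, 43, 45 and 53 ends, or 0.65, 0.61, 0.55 and 0.58 times the median. The window of Col1a2 held 5 MboI sites. The window of Col3a1 held 6 MboI sites and the first kilobase of the gene held none. Col3a1 lay below the median promoter in all 4 libraries.

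**Figure D2:**
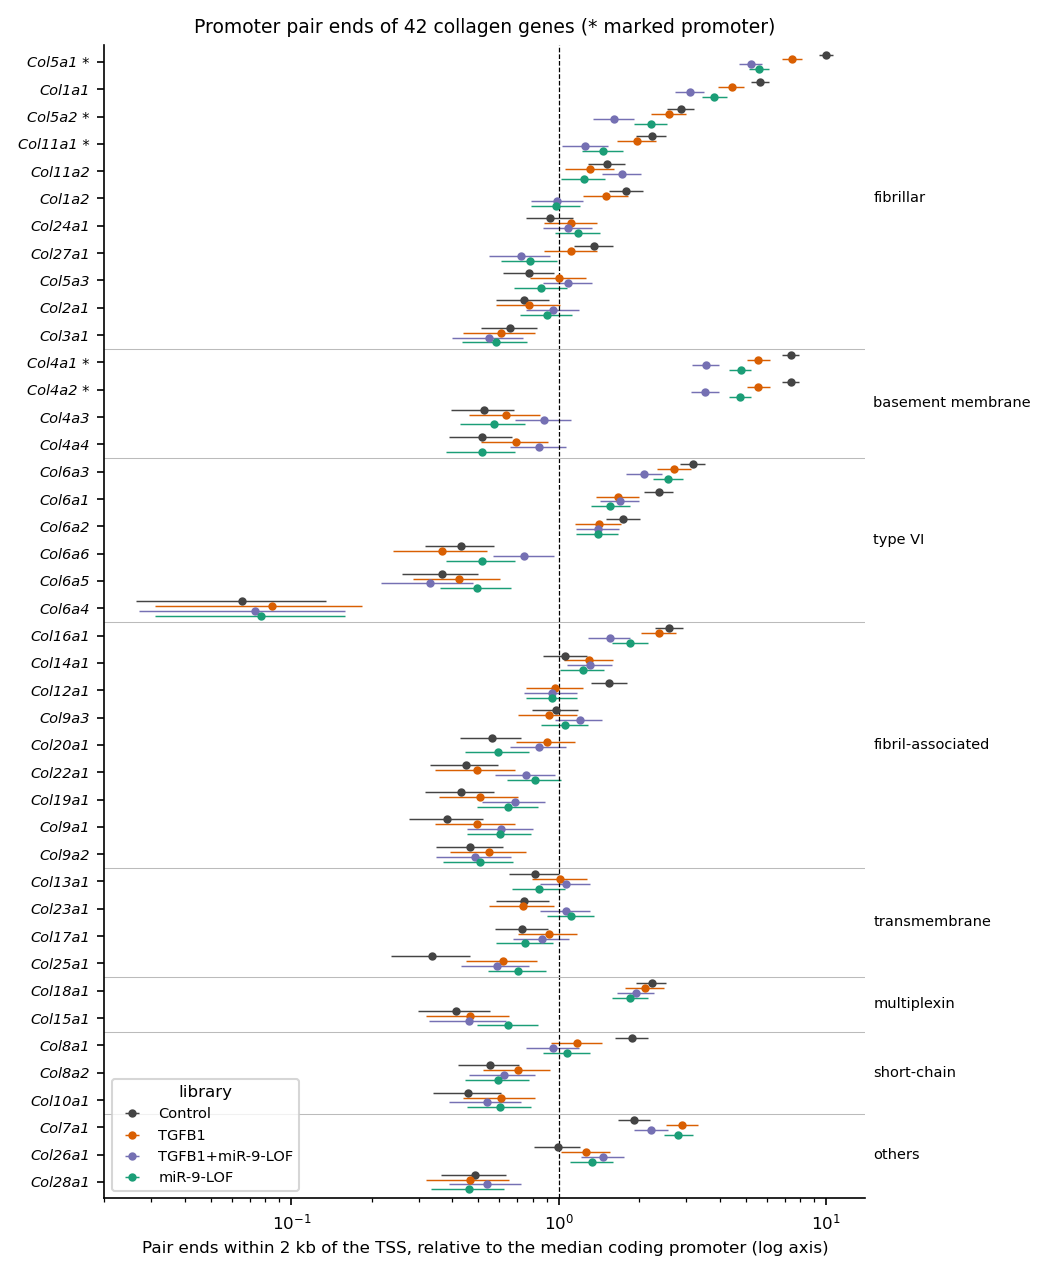
Pair ends within 2 kb of the TSS relative to the median coding promoter of the library (x axis, log) for the 42 collagen genes, grouped by type, in the 4 libraries, with 95% exact Poisson intervals of the counts and asterisks at marked promoters. Col5a1 reaches 9.99 in Control, Col4a1 and Col4a2 reach 7.36, and Col6a4 lies lowest, at 0.065 there.

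By type, the fibrillar genes had median levels of 1.51, 1.31, 1.09 and 1.18 in the library order, and the 31 other members had 0.73, 0.90, 0.88 and 0.81. Of the 11 fibrillar genes 3 were marked and 5 lay above the median promoter in every library, against 2 and 9 of the 31 others. The 5 included Col11a2, which stood at 1.11-fold over flanks that lay at 2.06 times the median flank density. The median density over the flanks was 1.92-fold for the fibrillar genes and 1.16-fold for the others. The 2 marked others were Col4a1 and Col4a2, which share a start and have nearly the same window. No test was made of this difference, since genes are not replicates. The 4 basement membrane genes split into Col4a1 and Col4a2, high in all libraries, and Col4a3 and Col4a4, low in all. The 6 type VI genes also split by locus. Col6a1, Col6a2 and Col6a3 encode the chains of the common type VI molecule. They lay between 1.40 and 3.17 times the median in every library, while Col6a4, Col6a5 and Col6a6 lay at or under 0.74. Over their flanks Col6a1, Col6a2 and Col6a3 stood at 2.335-fold, 1.264-fold and 3.109-fold. The flanks of Col6a2 were themselves high, at 1.88 times the median flank density. Col6a4 was the lowest member of all, with 7, 6, 6 and 7 ends, or 0.065, 0.085, 0.073 and 0.077 times the median. It stood at 0.150 times its flank density, and its window held 5 MboI sites, whose part was not tested. Its contacts were not as low, at 80, 74, 93 and 102, or 0.46, 0.63, 0.70 and 0.70 times the median.

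Among the fibril-associated genes Col16a1 was highest, at 2.58 times the median in Control, and 5 of 9 lay under the median in every library. No transmembrane gene (Col13a1, Col17a1, Col23a1 and Col25a1) lay above the median in all 4 libraries. Col18a1, a multiplexin of basement membranes from which endostatin is cut, had levels between 1.85 and 2.22, and its relative Col15a1 between 0.41 and 0.65. Over their flanks these 2 genes stood closer, at 1.77-fold and 1.15-fold. Their flanks lay at 1.83 and 0.679 times the median flank density. Col7a1, which forms the anchoring fibrils of skin, was the highest of the remaining types.

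The 2 type IV loci were compared because in each a pair of genes shares a start. The TSS of Col4a1 (minus strand, position 11312826 of chromosome 8) and of Col4a2 (plus strand, position 11312805) overlap by 22 bases. The 30 bases of the plus strand at chr8:11312801-11312830 are printed with this overlap in capitals, because both transcripts begin inside it.
Col4a1/Col4a2: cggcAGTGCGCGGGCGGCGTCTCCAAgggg
Their windows are nearly the same, so Col4a1 and Col4a2 count as 1 promoter in these data. It held 788, 396, 291 and 435 ends around the Col4a1 TSS, or 7.36, 5.58, 3.55 and 4.78 times the median. Counted around the Col4a2 TSS the ends were 788, 396, 289 and 432. The Col4a4 and Col4a3 starts (positions 82586849 and 82586921 of chromosome 1) are 72 bases apart in the same arrangement. They held 55, 49, 69 and 47 ends around Col4a4, or 0.51, 0.69, 0.84 and 0.52 times the median, and 56, 45, 72 and 52 around Col4a3. Both stood near their flanks, at 1.16-fold and 1.19-fold. Over all 888 head-to-head pairs of coding genes with starts within 2 kb, 45.4% had both genes marked.

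The ends around the Col4a1/Col4a2 start were not symmetric. The first kilobase of Col4a2 held 427, 217, 153 and 252 ends and stood 14.1-fold over the flanks. The kilobase on the Col4a1 side held 190, 87, 60 and 88 ends and stood 5.66-fold. The first of these holds 4 MboI sites and the other 1. The next kilobase into Col4a1 holds 6 sites and stood 5.41-fold, while the next one into Col4a2, with no site, held between 1 and 10 ends.

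Other starts had their highest 1-kb bin in different places. At Col5a1 it was the first kilobase of the gene, at 13.9-fold over the flanks and with 631 ends in Control. At Col11a1 it was the kilobase before the TSS, at 12.5-fold, followed by 8.65-fold in the first kilobase of the gene. At Col1a1 it lay from 1 to 2 kb into the gene, with 318, 155, 107 and 175 ends and 6.64-fold over the flanks. At Col7a1 it was the first kilobase, at 6.20-fold, and at Col27a1 it lay from 1 to 2 kb into the gene at 4.83-fold. Col27a1 encodes a fibrillar collagen of cartilage, and its RefSeq TSS lies 1408 bases downstream of the GENCODE start used here. The stretch of adjacent 1-kb bins at 4-fold or more reached 3 kb at Col4a1, Col5a1 and Col5a2, and 1 kb at Col1a1 and Col7a1.

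**Figure D3:**
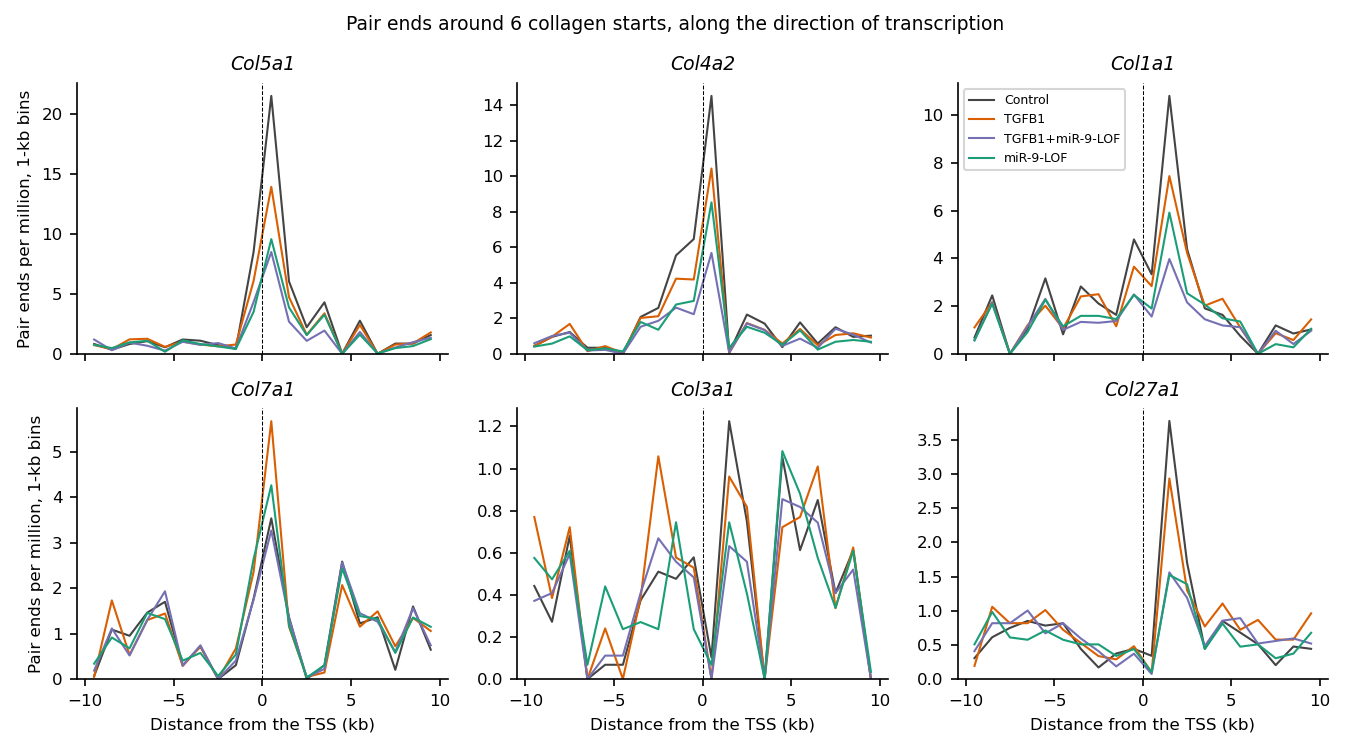
Pair ends scaled by all autosomal ends of the library (y axis) in 1-kb bins from 10 kb before to 10 kb after the TSS (x axis, kb along the direction of transcription) at 6 collagen genes, 1 line for each library. The tallest bin of Col5a1, of Col4a2 and of Col1a1 is highest in Control, Col7a1 is tallest in TGFB1, Col3a1 has no bin that stands out, and bins without an MboI site fall to about 0.

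Promoter ends were then compared between libraries, which bears on the question of how TGFB1 and miR-9 alter the mark. Ratios were centred on the median of promoters of similar level (10 groups of equal size) and tested with a two-sided exact binomial test, and p-values were adjusted by the Benjamini-Hochberg method over all autosomal coding promoters with at least 20 ends in the 2 libraries. The test compares libraries, not conditions, and its errors cover counting only. Of the 42 members 41 had enough ends.

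With TGFB1 over Control, 1 of 41 members was called, beside 1.03% of all coding promoters. This was Col7a1, with 205, 205, 182 and 255 ends in the library order, or 1.92, 2.89, 2.22 and 2.80 times the median promoter. Its lowest level was in Control, unlike the marked promoters, which were highest there. The TGFB1 library is the shallowest and held as many Col7a1 ends as Control. The centred log2 ratio was 0.94 (95% interval 0.65 to 1.23, adjusted p = 1.765e-06 by the exact binomial test). Density over the flanks was 2.46, 3.61, 2.50 and 3.38 in the library order, with the same 2 libraries, TGFB1 and miR-9-LOF, highest.

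Neither Col1a1 (centred log2 ratio 0.00, interval -0.20 to 0.20), Col5a1 (-0.06, interval -0.22 to 0.09), Col4a1 (-0.04, interval -0.22 to 0.13) nor Col1a2 (-0.10, interval -0.46 to 0.25) passed the test in this contrast. At these promoters the intervals lay between a halving and a doubling relative to promoters of the same level. They cover counting error in the TGFB1 and Control libraries only. Without replicates they set no bound on an effect of TGFB1. The members' median was 0.08, against 0.00 for all promoters tested, and 16 of the 41 lay below 0. An unadjusted p under 0.05 was found for 7 of 41, beside 12.8% of all promoters. The epithelial markers had a median of 0.19 in this contrast (1 of 8 below 0, none called), the endothelial and blood markers -0.12 and -0.11, and their part in the collagen values was not tested.

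With TGFB1+miR-9-LOF over TGFB1, none of 41 members was called, beside 0.672% of all promoters, and 5 of 41 had an unadjusted p under 0.05, beside 11.3% of all. Col7a1 had a ratio of 0.07 (interval -0.22 to 0.37), which is relative to promoters of the same level. Against the median promoter its level was lower with the antagomiR added, at 2.22 (interval 1.91 to 2.57) after 2.89 (2.51 to 3.31). These 2 intervals overlap. Its density over the flanks fell likewise, from 3.6 to 2.5, near the 2.46 of Control, and this fall was not tested. Col27a1, with 145, 79, 59 and 71 ends in the 4 libraries, had -0.70 (interval -1.22 to -0.20), and its adjusted p was 0.189 by the exact binomial test.

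With TGFB1+miR-9-LOF over miR-9-LOF, none of 41 was called, beside 0.462% of all, and 3 of 41 had an unadjusted p under 0.05, beside 10.3% of all. Col7a1 had a ratio of -0.16 (interval -0.44 to 0.12). The TGFB1 ratio at Col7a1 thus differed by 1.10 on the log2 scale between the libraries without and with the antagomiR against miR-9-5p. An exact test of this difference, conditional on the margins of the 4 counts and adjusted over 19618 promoters, gave p = 0.000221. Col7a1 was the member called among 41, beside 0.133% of all promoters. This comparison was added after its values were seen. For contacts the same difference at Col7a1 was 0.28 (adjusted p = 0.918, exact test).

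With miR-9-LOF over Control, 5 of 41 members were called, beside 9.52% of all promoters, the contrast with the most calls, and 11 of 41 had an unadjusted p under 0.05, beside 22.5%. It uses the same Control library as the TGFB1 contrast. Col7a1 was higher, with a ratio of 1.17 (interval 0.89 to 1.44, adjusted p = 2.12e-14, exact binomial test). Col26a1, for an extracellular protein with collagen repeats, was also higher, with 106, 90, 120 and 121 ends in the 4 libraries, a ratio of 0.64 (interval 0.25 to 1.03) and an adjusted p of 0.0187 by the exact test. Col26a1 was not marked, at 1.13-fold over its flanks. Both ratios are relative to promoters of the same level. Col7a1 had 205 ends in Control and 255 in miR-9-LOF. Centred on the median of all promoters, the ratios were 0.72 for Col7a1 and 0.60 for Col26a1.

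Col27a1, Col1a2 and Col8a1 were lower. Col27a1 had a ratio of -0.90 (interval -1.33 to -0.48, adjusted p = 0.000913, exact binomial test), and its levels of 1.36, 1.11, 0.72 and 0.78 times the median were lower in both miR-9-LOF libraries than in the other 2. The median levels of the marked promoters as a whole had the same order of libraries. Col1a2 had -0.66 (interval -1.04 to -0.29, adjusted p = 0.009, exact binomial test), with 89 ends against 191. Col8a1, with 201, 83, 78 and 98 ends, had -0.59 (interval -0.95 to -0.24, adjusted p = 0.0159, exact binomial test). For Col8a1 the Control library alone was high, at 1.88 times the median promoter, and the other 3 lay between 0.95 and 1.17. These 3 calls depended on the window. Within 1 kb of the TSS none of Col27a1 (-0.68), Col1a2 (-0.44) and Col8a1 (-0.52) was called, and within 5 kb neither Col27a1 (-0.19) nor the higher Col26a1 (0.28) was. Counted at the annotated start with the most ends, Col27a1 (-0.25) and Col1a2 (-0.46) were not called, and centred on the marked promoters neither they nor Col8a1 were. The share of pairs passing a mapping quality cutoff of 30 was 86.6% in miR-9-LOF against 90.4% in Control, and with that cutoff Col26a1 (0.47) was not called. In the same contrast 2 markers of other cells, Pecam1 (0.84) of endothelium and Krt18 (0.61) of epithelium, were also called higher and 2 fibroblast markers, Fn1 (-0.57) and Dcn (-0.63), lower. The other genes of these lists went both ways, with centred medians of 0.09 for the endothelial list (3 of 6 below 0), 0.05 for the epithelial list (3 of 8), -0.05 for the blood list (3 of 6) and -0.10 for the fibroblast list (8 of 12). Their part in the collagen results was not tested.

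**Figure D4:**
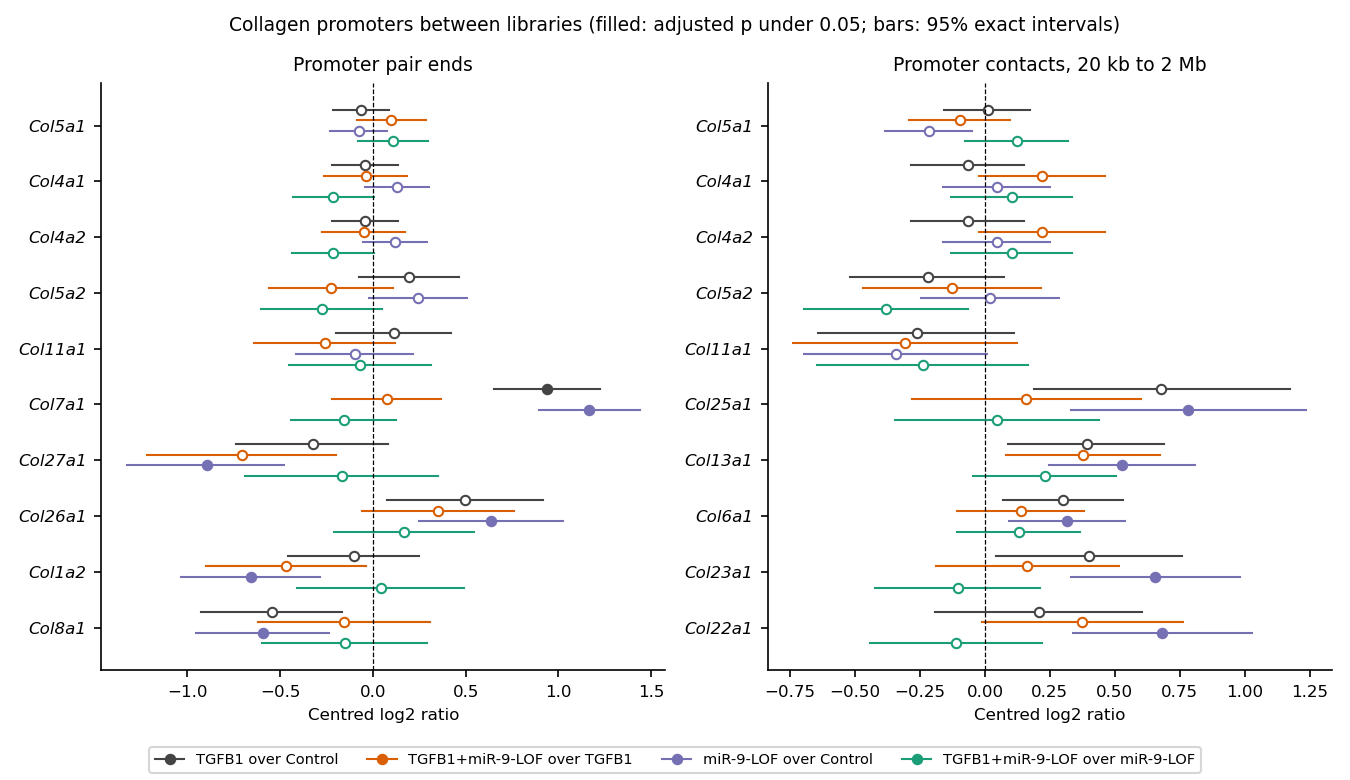
Centred log2 ratios (x axis) of promoter pair ends (left) and of promoter contacts (right) for the marked collagen genes and those called in any contrast (y axis), in 4 contrasts, with 95% exact intervals and filled points where the adjusted p was under 0.05. For ends, Col7a1 is filled in both contrasts against Control at 0.94 and 1.17, while Col5a1 and Col4a1 are filled in none of the 4. Col4a1 lies at -0.21 with TGFB1+miR-9-LOF over miR-9-LOF.

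Contacts were counted as pairs 20 kb to 2 Mb long with an end within 10 kb of the TSS, relative to the median coding promoter of the library. Col5a1 had 829, 472, 401 and 442 contacts in the library order, or 4.74, 4.00, 3.04 and 3.03 times the median. Col11a2, for a type XI chain, had 759, 417, 396 and 512 contacts, or 4.34, 3.53, 3.00 and 3.51 times, and was above Col5a1 in miR-9-LOF. The Col11a2 promoter itself stood only 1.11-fold over its flanks. Its window holds the starts of 2 other coding genes, and the nearest, Rxrb, lies 7625 bases away and stood 10.2-fold over its flanks. With the window narrowed to 5 kb, the contact level of Col11a2 in Control was 1.64 and that of Col5a1 was 7.13.

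Col1a1 had 529, 324, 260 and 360 contacts, or 3.02, 2.75, 1.97 and 2.47 times the median. The Col4a1/Col4a2 start had 505, 273, 289 and 323, or 2.89, 2.31, 2.19 and 2.21 times. Col5a2 had 273, 147, 144 and 209, or 1.56, 1.25, 1.09 and 1.43 times. Col11a1, although marked, had only 164, 95, 92 and 119, or 0.94, 0.81, 0.70 and 0.82 times, in a region where the nearest other coding start is 400391 bases away. Col4a3 and Col4a4 shared 114, 95, 113 and 111 contacts, or 0.65, 0.81, 0.86 and 0.76 times. The median member had 0.97, 1.03, 1.10 and 1.06 times the median promoter in the 4 libraries.

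The contacts of each start were divided between the side of the gene body and the other side. Over 19735 coding promoters with at least 100 contacts, the share on the downstream side had a median of 50.3%, with 5th and 95th percentiles of 32.3% and 69.0%. Of the members 3 lay outside that range, which by construction leaves out 10% of coding promoters, and they were named after their values were seen. Col12a1, for a fibril-associated collagen, had 88.7% of 772 contacts downstream (95% exact binomial interval 86.3% to 90.9%) and Col6a1 had 76.7% of 1238 (74.2% to 79.0%). Col5a1 had 31.5% of 2144 downstream (29.5% to 33.5%), so most of its contacts lay on the side away from the gene.

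At the Col4a1/Col4a2 start, 611 of 1390 contacts pointed into the Col4a1 side, or 44.0% (95% exact binomial interval 41.3% to 46.6%). The shares were 45.1%, 45.1%, 40.5% and 44.3% in the library order, with overlapping intervals. At the Col4a4/Col4a3 start 193 of 433 contacts, 44.6% (39.8% to 49.4%), pointed into the Col4a4 side. Here the shares were 48.25%, 41.05%, 36.28% and 52.25% in the library order, with overlapping intervals, so miR-9-LOF leaned the other way. Across the 884 head-to-head pairs with at least 100 contacts, the minus-strand side took a median of 49.8%, with 5th and 95th percentiles of 33.5% and 66.9%, so both loci lay inside that range.

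Between libraries, contacts of collagen genes passed the test in 1 of the 4 contrasts. With TGFB1 over Control none of 42 members was called, beside 0.712% of all promoters, and 5 of 42 had an unadjusted p under 0.05, beside 12.7%. None was called with TGFB1+miR-9-LOF over TGFB1, beside 0.324% of all, and none with TGFB1+miR-9-LOF over miR-9-LOF, beside 0.109%. The unadjusted p was under 0.05 for 5 and 1 of 42 members in these, beside 2408 of 20067 and 1806 of 20135 promoters in all. The difference between the 2 TGFB1 contrasts was called for no member and for no promoter (0.0%), and 2 of 42 members had an unadjusted p under 0.05 in it, beside 6.54% of all.

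With miR-9-LOF over Control 5 of 42 were called, beside 10.4% of all promoters, and 13 of 42 had an unadjusted p under 0.05, beside 24.6%. All 5 were higher in miR-9-LOF relative to promoters of the same level. Of all 20154 promoters tested, 976 were called higher and 1125 lower. The 5 members, none of them marked, included 3 of the 4 transmembrane genes, a type not singled out beforehand. Col25a1, for a collagen of neurons, had 67, 77, 107 and 115 contacts in the 4 libraries and a centred log2 ratio of 0.78 (interval 0.33 to 1.24, adjusted p = 0.0103, exact binomial test). Col13a1, for a collagen of cell adhesion sites, had 211, 169, 224 and 217, with 0.53 (interval 0.25 to 0.81, adjusted p = 0.00589, exact test). Col23a1 had 145, 124, 154 and 182, with 0.66 (interval 0.33 to 0.98, adjusted p = 0.00241, exact test). Col13a1 was not called within 5 kb of the TSS (0.27, adjusted p = 0.523, exact test) or centred on all promoters (0.32), and Col23a1 was not called within 25 kb (0.26). None of these 3 promoters was marked, with densities of 1.36, 0.945 and 0.938 over their flanks.

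Col22a1, a fibril-associated collagen of tissue junctions, had 123, 96, 143 and 169 contacts and a ratio of 0.68 (interval 0.34 to 1.03, adjusted p = 0.00318, exact test), but was not called within 5 kb (0.62). Col6a1 had 369, 269, 291 and 309 contacts and a ratio of 0.32 (interval 0.09 to 0.54, adjusted p = 0.0497, exact test). Against the median of all promoters, without regard to level, the ratio of Col6a1 was 0.02. Its contact level was 2.11 times the median promoter in Control and 2.12 in miR-9-LOF. The members' median ratio in this contrast was 0.10, against 0.00 for all promoters, and 11 of 42 lay below 0. Lists of other cells had medians as high in it, at 0.24 for the epithelial markers (1 of 8 below 0), 0.13 for the endothelial (2 of 6) and 0.14 for the blood markers (2 of 6), with none of their genes called. The fibroblast markers had a median of 0.00, and Pdgfra (-0.36) and Twist1 (-0.46) were called lower. The part of these lists in the collagen contacts was not tested. Col7a1, called for ends, had 230, 161, 186 and 226 contacts and a ratio of 0.38 (interval 0.11 to 0.65, adjusted p = 0.0532, exact test).

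Pairs that join one collagen promoter to another were counted next, since several collagen genes are neighbours. Of the members, 9 pairs of genes lie 20 kb to 2 Mb apart. An expected number was computed from the contacts of each window and the decay of contacts with distance. Together they held 175 pairs, against 113.2 expected, a ratio of 1.55 (95% exact Poisson interval 1.33 to 1.79). Without Col6a2 and Col6a1, left out after the values were seen, the other 8 pairs of genes held 47 against 52.2 expected, a ratio of 0.90 (0.661 to 1.20). The remaining 128 came from Col6a2 and Col6a1, which lie 103 kb apart on chromosome 10. Their starts were joined by 37, 27, 27 and 37 pairs in the library order, against 19.8, 11.9, 14.5 and 14.7 expected, so each library held more than expected. The ratio was 2.10 (1.75 to 2.50). Among the 9037 pairs of coding promoters 75 to 125 kb apart with at least 30 expected, the median ratio was 0.676, the 95th percentile was 1.44, and 0.896% reached that of Col6a2 and Col6a1. This set was chosen after the value was seen. The other 8 pairs of genes each had fewer than the 30 expected that it requires. It therefore gives no usual ratio to read theirs against. With windows of 25 kb the ratio over all 9 pairs of genes was 1.19.

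Col6a6 and Col6a4 had 7 pairs against 2.35 expected, a ratio of 2.98 (1.20 to 6.14), with 5 of them in miR-9-LOF. Col3a1 and Col5a2, fibrillar genes that lie tail to tail with starts 192 kb apart on chromosome 1, had 9 pairs against 10.9 expected, a ratio of 0.82 (0.38 to 1.56). Col6a2 and Col18a1 had 1 pair against 6.49 expected, a ratio of 0.15 (0.0039 to 0.859). The intervals of the other 5 pairs of genes included 1.

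**Figure D5:**
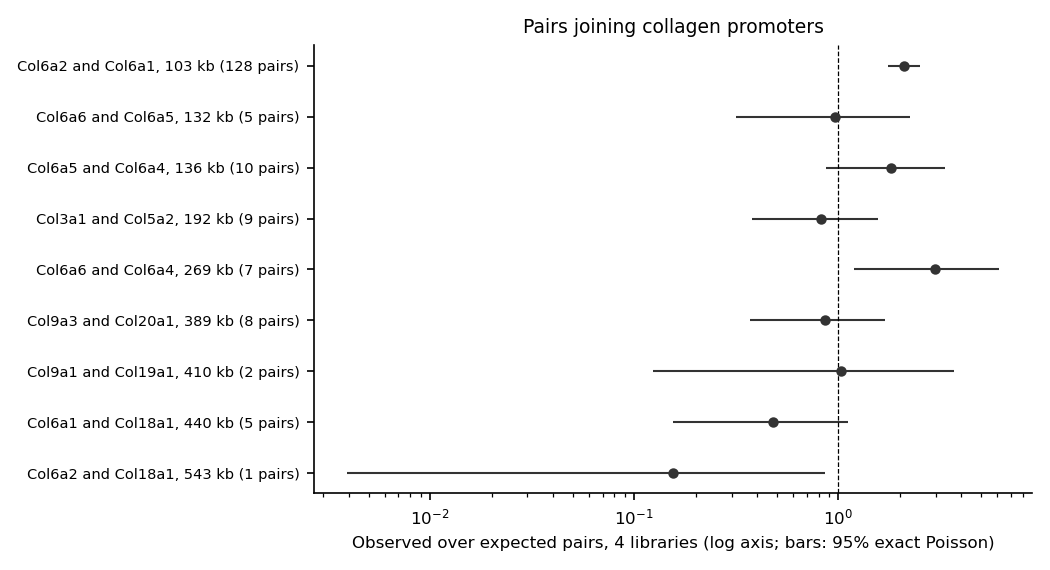
Observed over expected pairs (x axis, log) joining the promoters of 9 pairs of neighbouring collagen genes (y axis, with their distance and number of pairs), summed over 4 libraries, with 95% exact Poisson intervals. Col6a2 and Col6a1 lie at 2.10 with a narrow interval, and most other intervals are wide and include 1.

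Finally, regions in frequent contact with each collagen start were sought as 10-kb bins with at least 10 pairs over the 4 libraries and at least 2 times the expected number. The expected number rises with the coverage of both bins, and Col5a1 had no such bin. Of the 42 members 24 had at least 1, beside 46.0% of all coding promoters, and of the 5 marked members 4 did, beside 76.3% of the 4018 marked coding promoters. The 24 members had 75 bins in all (72 different ones), of which 31 lay in the member's own gene, 28 lay upstream of it and 10 held a coding start. Marked starts were in 4 of them.

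Several members had runs of adjacent bins. Col5a2 had 7 upstream bins with 144 pairs, 1 at 20 kb and 6 adjacent ones from 70 to 120 kb, of which the farthest, chr1:45620001-45630000, had 13, 10, 4 and 7 pairs in the 4 libraries and 4.59 times the expected number. Col1a2 had 6 upstream bins from 40 to 90 kb with 135 pairs, at 2.23 to 4.52 times expected. The highest of these, chr6:4410001-4420000, had 17, 6, 5 and 10 pairs. No coding start lies in either run.

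Col27a1 had 6 bins, all in its own gene 60 to 110 kb from the start, with 110 pairs at 2.04 to 6.14 times expected. Its highest bin held 8, 8, 7 and 10 pairs, with no library standing apart. Col8a1 had 5 bins, all in its own gene. Col14a1, for a fibril-associated collagen, had 12 from 140 to 250 kb away with 186 pairs, 7 of them in its own gene, and its farthest downstream bin held the marked starts of Mrpl13 and Mtbp. Col4a1 and Col4a2 shared 2 bins, 60 and 80 kb into Col4a2, at 2.09 and 2.07 times expected. Col12a1 had the farthest bin, 490 kb downstream, with 11 pairs against 0.844 expected, or 13.0 times (6.50 to 23.3). With so few expected, the minimum of 10 pairs keeps a bin only if its ratio is high. All these bins were chosen for high counts, and the interval does not cover that choice.

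The genes that modify, fold and export collagen were read as a further list of 29 genes, of which 6 were marked, beside 19.3% of all coding promoters. These were Tll1 and Adamts14, for proteases that trim procollagen, Sec23a, for a coat protein of the vesicles that export it, Serpinh1, for the collagen chaperone HSP47, Plod3, for a lysyl hydroxylase, and P4ha1, for a prolyl hydroxylase subunit. The median level of the 29 genes was 2.64, 2.16, 1.70 and 1.80 times the median promoter in the library order, against 0.87, 0.99, 0.97 and 0.92 for the collagen genes themselves. Serpinh1 stood at 6.95 and Plod3 at 8.73 in Control. For ends, none of the 29 was called with TGFB1 over Control, Adamts2 was higher in TGFB1+miR-9-LOF over both TGFB1 (0.68) and miR-9-LOF (0.56), which share the first library and in which 0.672% and 0.462% of all promoters were called, and Plod1 (-0.60) and Plod2 (-0.70) were lower with miR-9-LOF over Control, 2 of 29 beside 9.52% of all. For contacts, Sec23a (-0.91) was lower and Fkbp10 (0.36) higher with miR-9-LOF over Control, 2 of 29 beside 10.4% of all, and none of the 29 was called in the other 3 contrasts.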

How the data were processed

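The deposited files list valid pairs, 1 line for each pair with the position, strand and mapping quality score of both ends. The authors aligned reads to mm10, removed duplicates and assigned ends to MboI fragments with HiC-Pro, whose version is not given in the sources used here. The 4 libraries held 15359978, 10864558, 14121095 and 15568047 pairs in the order Control, then TGFB1, then TGFB1+miR-9-LOF, and last miR-9-LOF. Promoters were the 5' ends of autosomal coding genes in GENCODE vM21, and sequences came from RefSeq (GRCm38.p6). Ends within 2 kb and contacts of 20 kb to 2 Mb within 10 kb of each TSS were counted in Python 3.11.15 with numpy 2.4.6 and scipy 1.17.1, with pandas 2.3.3 and matplotlib 3.10.9. Libraries were compared in 4 contrasts by exact binomial tests, centred within 10 groups of level, and called at an adjusted p under 0.05. By rule, values in every library are given for the marked, called and type IV members and for the highest and lowest unmarked ones, and Col3a1, Col11a2 and other members given with values were picked after these were seen. The collagen genes and lists were chosen with earlier results of these data known. Expected pairs are the product of both coverages and the decay with distance, in 10-kb bins. Intervals cover counting error only.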

Additional observations from a re-analysis of the deposited data

Results flagged for a closer look

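The TGFB1 ratio of promoter pair ends at Col7a1 differed between the libraries without and with the antagomiR against miR-9, by 1.10 on the log2 scale (exact conditional test adjusted over 19618 promoters, p = 0.000221). The centred log2 ratio was 0.94 for TGFB1 over Control and -0.16 for TGFB1+miR-9-LOF over miR-9-LOF. What drew attention is that the same TGFB1 contrast gave different results with and without this antagomiR. The comparison was added after its values were seen. The Col7a1 ratio was also 1.17 for miR-9-LOF over Control (exact binomial test, adjusted p = 2.12e-14), and its level relative to the median promoter was lowest in Control. The ratios of 0.94 and 1.17 share that Control library. Centred on the median of all promoters, the Col7a1 ratio for miR-9-LOF over Control was 0.72. For contacts the same difference at Col7a1 was 0.28 (exact test, adjusted p = 0.918). For ends the difference stayed past the threshold of the exact test in 7 alternative settings, between 0.70 with windows of 5 kb (adjusted p = 0.0221) and 1.31 with windows of 1 kb (adjusted p = 5.93e-05). These settings reuse the same libraries. Each condition is 1 library, so a difference between libraries and one between conditions cannot be told apart.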

How the results depend on the processing

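No paired analysis was possible because each condition has 1 library and the groups share only the replicate number 1. With 1 library a condition, leaving out a replicate could not be done either.

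The number of collagen genes called is given with the share of all tested promoters called, in either direction, under the same setting. For ends with TGFB1 over Control it was 1 (1.03% of all), and became 2 within 1 kb of the TSS (0.465%), 4 within 5 kb (4.33%), 4, with 3 higher and 1 lower, centred on the median of all promoters (10.3%), 7, all higher, centred on the marked promoters (8.88%), 2 at the annotated start with the most ends (1.35%) and 2 by a 1.5-fold difference without a test (7.95%). With TGFB1+miR-9-LOF over TGFB1 it was 0 (0.672%), and became 3 within 5 kb (3.59%), 10, with 4 higher and 6 lower, centred on all (24.0%), 17, all higher, centred on marked (30.8%) and 3 by 1.5-fold (7.96%). With miR-9-LOF over Control it was 5, with 2 higher and 3 lower (9.52%), and became 11 within 5 kb (20.6%), 19, with 9 higher and 10 lower, centred on all (50.6%), 28, all higher, centred on marked (55.9%) and 3 at the start with the most ends (10.5%). With TGFB1+miR-9-LOF over miR-9-LOF it was 0 (0.462%), and became 1 centred on marked (1.35%) and 1 by 1.5-fold (6.07%).

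For contacts with TGFB1 over Control the number was 0 (0.712%), and became 1 within 25 kb (4.07%), 1 centred on all (4.60%), 5 centred on marked (8.09%) and 1 by 1.5-fold (3.04%). With TGFB1+miR-9-LOF over TGFB1 it was 0 (0.324%), and became 2 within 25 kb (1.73%), 2 centred on all (7.01%) and 8 centred on marked (15.9%). With miR-9-LOF over Control it was 5, all higher (10.4%), and became 10 within 25 kb (21.1%), 14, with 7 higher and 7 lower, centred on all (37.8%), 29, with 28 higher and 1 lower, centred on marked (52.1%), 3 by 1.5-fold (5.87%) and 8 centred on level and GC (10.2%). Marked collagen promoters numbered 5 (19.3%), and became 11 at 2-fold (40.1%), 0 at 8-fold (3.08%), 8 within 1 kb (29.9%), 9 in Control alone (28.0%) and 1 in TGFB1+miR-9-LOF alone (8.34%). Pairs joining collagen promoters went from 1.55 to 1.19 times expected within 25 kb and to 0.90 without Col6a2 and Col6a1, and the share on the Col4a1 side from 44.0% to 41.1% for contacts of 50 kb to 2 Mb.

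The other 73 values of these summaries stayed close to the main ones in number, but not always in genes. With miR-9-LOF over Control, the 4 members called for ends within 1 kb (3 higher, 1 lower) shared 2 with the main 5, and the 5 called for contacts within 5 kb also shared 2. Of the values for single genes, 106 kept their call, 22 lost it and none changed direction. Col7a1 kept its calls for ends in every alternative run. Col6a1 lost its call for contacts in 6 of them, and its ratio was 0.02 centred on all promoters. The centring on neighbours in level, on level and GC, the libraries taken alone and the omission of Col6a2 and Col6a1 were chosen after seeing the data, and the cause of these changes was not tested. Depth limits the low promoters most. Col9a2, with 50 ends in Control, stood at 0.47 times the median with an interval of 0.35 to 0.62.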
